A study of Mus musculus with 12 samples.

Results

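The genes described here carry glucose through glycolysis to lactate, into the mitochondrion as pyruvate, or into the pentose phosphate pathway. The set was defined by 39 gene symbols, and a member was any row of the count matrix with such a symbol and at least 10 counts in every library. This left 38 members of the 55471 genes in the matrix. They comprised 3 glucose transporter genes, 17 genes of glycolysis, 4 of lactate production and export, 7 of pyruvate entry and 7 of the pentose phosphate pathway. The symbols matched 40 rows, and the 2 rows below the minimum were *Pdk4*, a pyruvate dehydrogenase kinase, and a second row named *Aldoa*.

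RNA was sequenced from bone marrow-derived dendritic cells (DCs), antigen-presenting cells grown from mouse bone marrow in the presence of GM-CSF. The marrow came from adult female C57BL/6 mice, and every culture received a retroviral vector that encoded an shRNA together with a human CD8 reporter, by which the transduced cells were sorted. The hairpin targeted firefly luciferase (shControl) or *Ppargc1b* (sh*Ppargc1b*), the gene for PGC-1β, a transcriptional co-activator of mitochondrial genes, and the cells were left unstimulated or treated with the type I interferon IFN-β for 6 h. Each of the 4 groups had 3 libraries, and the comparisons ask how the knockdown and the interferon changed gene expression. The cells came from wild-type marrow, the knockdown was partial, and a transduced population rather than a clone was sequenced. The labels do not say whether libraries of a group came from separate cultures or animals, so the p-values measure only the spread between these libraries, which may be technical.

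Libraries held 49.9 to 77.7 M counts, and 18228 genes passed the filter on low counts. *Ppargc1b* ranged from 33.3 to 36.7 CPM (counts per library size in M, scaled between libraries by TMM factors) in unstimulated shControl DCs and from 18.6 to 20.3 in the matching sh*Ppargc1b* DCs. With IFN-β it ranged from 23.6 to 31.4 CPM in shControl and from 15.5 to 20.9 CPM in sh*Ppargc1b* DCs, so the knockdown groups lay below their controls without overlap. All 10 dendritic cell markers examined passed the filter and summed to between 3822 and 5722 CPM, whereas lymphocyte markers summed to at most 0.947 CPM and erythroid markers to at most 0.295 CPM. Macrophage markers, which GM-CSF cultures are known to contain, summed to between 2493 and 3649 CPM. In such bulk samples fewer cells of a type and less RNA per cell cannot be told apart.

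Glycolysis splits glucose into pyruvate in the cytosol and yields ATP and NADH. Pyruvate is either reduced to lactate by lactate dehydrogenase and exported, or carried into mitochondria and converted to acetyl-CoA by the pyruvate dehydrogenase complex, which the PDK kinases inhibit. The pentose phosphate pathway branches off at glucose 6-phosphate and supplies NADPH and ribose. DCs are known to raise glycolysis on activation, and hypoxia-inducible factor is a known regulator of many of these genes.

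The upstream sequences shown were chosen on different grounds and do not represent the members as a whole. They are *Ldhb*, the member with the largest knockdown effect, its family partner *Ldha*, the 2 members that IFN-β raised most (*Hk3* and *Pdk3*), and *Rpe*. *Rpe* was chosen by motif, as its window was the only member window with an interferon-stimulated response element. *Slc16a1*, which IFN-β lowered most, is not shown. Each holds the 250 bases before a RefSeq transcription start in GRCm38.p6, 5′ to 3′ on the gene's strand. Capitals mark a hypoxia response core (ACGTG on either strand, including the E-box CACGTG that contains it) or an interferon-stimulated response element (GAAA, any 2 bases, then GAAA, on either strand). *Ldha* has a second window in the table, which held neither motif.
Ldha upstream, chr7:46845554-46845803, plus strand: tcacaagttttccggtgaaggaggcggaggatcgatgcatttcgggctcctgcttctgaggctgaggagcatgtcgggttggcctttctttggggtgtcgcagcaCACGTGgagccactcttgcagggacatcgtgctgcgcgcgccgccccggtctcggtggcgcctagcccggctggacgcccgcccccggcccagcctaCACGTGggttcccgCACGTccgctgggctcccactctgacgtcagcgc
Ldhb upstream, chr6:142507958-142508207, minus strand: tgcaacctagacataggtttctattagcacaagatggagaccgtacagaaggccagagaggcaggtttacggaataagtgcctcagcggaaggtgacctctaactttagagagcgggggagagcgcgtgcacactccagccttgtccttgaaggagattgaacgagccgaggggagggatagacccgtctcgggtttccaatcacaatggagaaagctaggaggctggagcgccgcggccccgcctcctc
Hk3 upstream, chr13:55021386-55021635, minus strand: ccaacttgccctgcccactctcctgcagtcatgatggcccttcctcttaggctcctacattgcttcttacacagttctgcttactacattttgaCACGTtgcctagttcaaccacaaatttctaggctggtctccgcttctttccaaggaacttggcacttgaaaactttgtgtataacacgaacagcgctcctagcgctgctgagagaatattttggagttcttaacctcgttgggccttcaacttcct
Pdk3 upstream, chrX:93832151-93832400, minus strand: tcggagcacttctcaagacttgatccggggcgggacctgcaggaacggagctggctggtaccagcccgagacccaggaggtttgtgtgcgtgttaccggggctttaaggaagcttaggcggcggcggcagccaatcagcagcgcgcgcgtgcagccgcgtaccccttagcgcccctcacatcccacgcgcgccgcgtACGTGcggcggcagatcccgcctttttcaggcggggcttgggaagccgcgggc
Rpe upstream, chr1:66700581-66700830, plus strand: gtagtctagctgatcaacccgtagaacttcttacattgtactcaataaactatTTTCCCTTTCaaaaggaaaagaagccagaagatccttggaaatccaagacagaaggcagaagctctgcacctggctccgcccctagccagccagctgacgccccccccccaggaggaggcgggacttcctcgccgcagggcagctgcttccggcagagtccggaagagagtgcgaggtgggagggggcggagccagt
The *Ldha* sequence holds 3 stretches in capitals, the *Hk3* and *Pdk3* sequences 1 each and the *Ldhb* sequence none. Over the whole windows, which also take in 50 bases after the start, 21 of 52 windows of the 37 members in the table held ACGTG, or 40.4%, against 19.6% of all 32851 windows in the table. The core contains a CpG, and the members' windows held a median of 20.5 CpG against 7 over all windows, whose part in the difference was not tested. The E-box lay in 4 member windows, those of *Ldha*, *Pfkfb3*, *Pfkm* and *Slc16a1*, which is 7.69% against 7.15% of all windows. The interferon-stimulated response element was found in the *Rpe* window alone (1.92% against 3.44%), and the estrogen-related receptor motif AAGGTCA (either strand) in those of *Eno1* and *Tpi1* (3.85% against 4.72%). *Slc2a3* was not in the table. A match is a run of letters, not evidence of binding.

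Knockdown of *Ppargc1b* was followed by lower levels of members in each treatment, and more members passed the test with IFN-β than without. In unstimulated DCs 12 of 38 members were lower and 2 higher in sh*Ppargc1b* than in shControl at an adjusted p under 0.05 (edgeR's quasi-likelihood test with Benjamini-Hochberg adjustment over all genes tested). Over all genes tested, 11.1% were lower and 12.4% higher in that comparison. With IFN-β 21 of 38 members were lower and 0 higher, against 12.7% and 11.5% of all genes. At an unadjusted p under 0.05 in edgeR, 1 member was higher and 28 lower with knockdown under IFN-β, where 6299 of 18228 genes passed in either direction. DESeq2 called 0 members higher, against 2105 of all genes. The median log2 fold change of the members was -0.11 without and -0.24 with IFN-β, against -0.0049 and -0.011 over all genes.

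**Figure D1:**
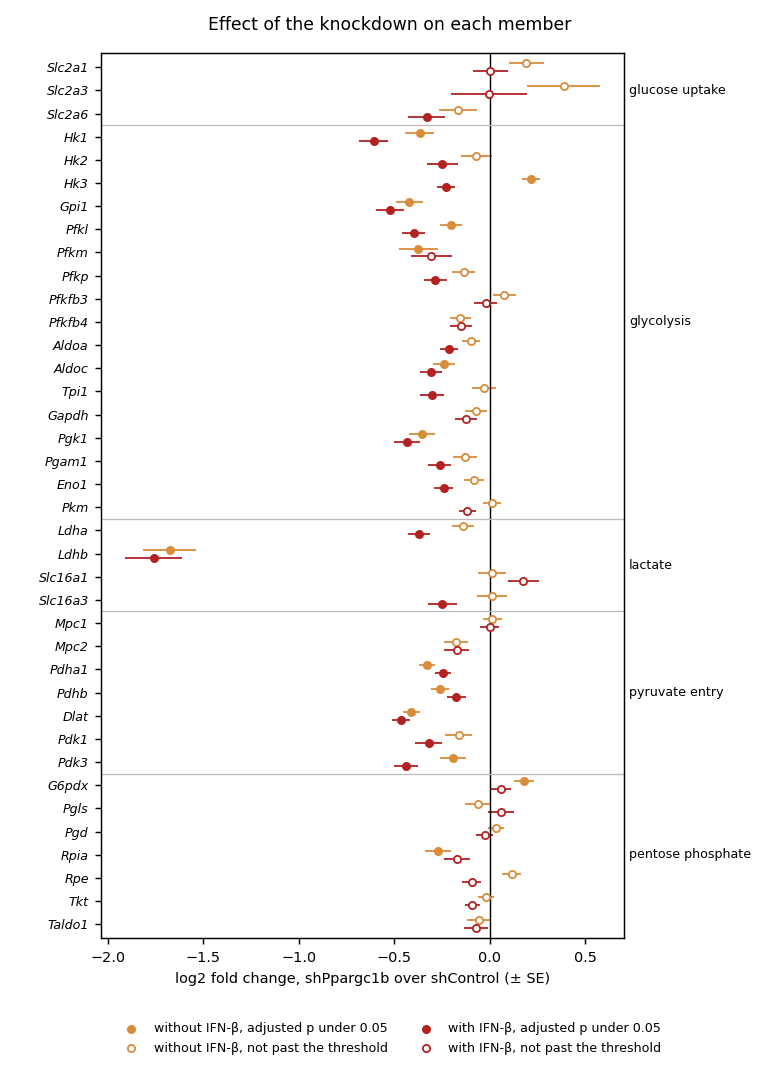
Log2 fold change of each member in sh*Ppargc1b* over shControl DCs (x axis, bars ± SE, 3 libraries per group), without (orange) and with IFN-β (red), with filled points at an adjusted p under 0.05. *Ldhb* lies far to the left of all others in both treatments, and with IFN-β all 17 glycolysis points lie left of 0.

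The members that passed in both treatments were *Hk1*, *Gpi1*, *Pfkl*, *Aldoc*, *Pgk1*, *Ldhb*, *Pdha1*, *Pdhb*, *Dlat* and *Pdk3*, which were lower each time. *Hk3* passed in opposite directions. With IFN-β alone, *Slc2a6*, *Hk2*, *Pfkp*, *Aldoa*, *Tpi1*, *Pgam1*, *Eno1*, *Ldha*, *Slc16a3* and *Pdk1* also passed, all lower, while *Pfkm* and *Rpia* were lower and *G6pdx* higher without IFN-β alone. Passing in 1 treatment and not the other is no test of a difference, which is given further on. The remaining 14 members passed in neither, namely *Slc2a1*, *Slc2a3*, *Pfkfb3*, *Pfkfb4*, *Gapdh*, *Pkm*, *Slc16a1*, *Mpc1*, *Mpc2*, *Pgls*, *Pgd*, *Rpe*, *Tkt* and *Taldo1*. A block for runs of library codes added calls to these lists. Without IFN-β it called *Pfkfb4*, *Ldha* and *Mpc2* lower (adjusted p 0.0408, 0.0421 and 0.0256) and *Rpe* higher (0.0394). With IFN-β it called *Pfkm* and *Mpc2* lower (0.0478 and 0.0314). Libraries within the knockdown groups were uneven. In unstimulated sh*Ppargc1b* DCs, replicate 1 was the highest of 3 in 24 of 38 members and its members summed to 13888 CPM, against 12678 and 12879 in replicates 2 and 3, and without replicate 2 of that group 9 members were lower with knockdown in place of 12. In sh*Ppargc1b* DCs with IFN-β, replicate 1 was the lowest of 3 in 25 of 38 members and its members summed to 11588 CPM, against 13249 in replicate 2 and 12708 in replicate 3. Without replicate 1, 19 members were lower with knockdown under IFN-β, and without replicate 2, 24 were. Such drops were not particular to these libraries. Leaving out unstimulated shControl 1 also gave 19 with IFN-β, a comparison it is not part of, and 9 without IFN-β.

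IFN-β moved members in both directions. In shControl DCs 12 of 38 members rose and 13 fell (edgeR), against 23.7% and 24.6% of all genes tested. In sh*Ppargc1b* DCs 6 rose and 16 fell, against 21.4% and 21.2%. The median log2 fold change of the members was -0.02 and -0.12, against -0.03 and -0.02 over all genes. These splits depended on scaling, because TMM factors ran from 1.07 to 1.09 in libraries of untreated DCs and from 0.914 to 0.941 in treated ones. With library totals alone the median of all genes shifted to -0.27 in shControl and -0.22 in sh*Ppargc1b*, and 6 members rose and 23 fell in shControl and 5 rose and 28 fell in sh*Ppargc1b*. Under that scaling *Hk2* and *Tpi1* in shControl (log2 fold change -0.027 and -0.0059) and *Pfkp* in sh*Ppargc1b* (-0.034) no longer rose, the rises of *Pfkl*, *Pfkp*, *Ldha* and *G6pdx* in shControl missed the threshold, and, among other added calls, *Aldoa*, *Gapdh*, *Pgk1* and *Mpc1* were called lower in both genotypes and *Ldha* in sh*Ppargc1b*. In each genotype 8 members changed sign under that scaling, which shifts all genes of a comparison alike.

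**Figure D2:**
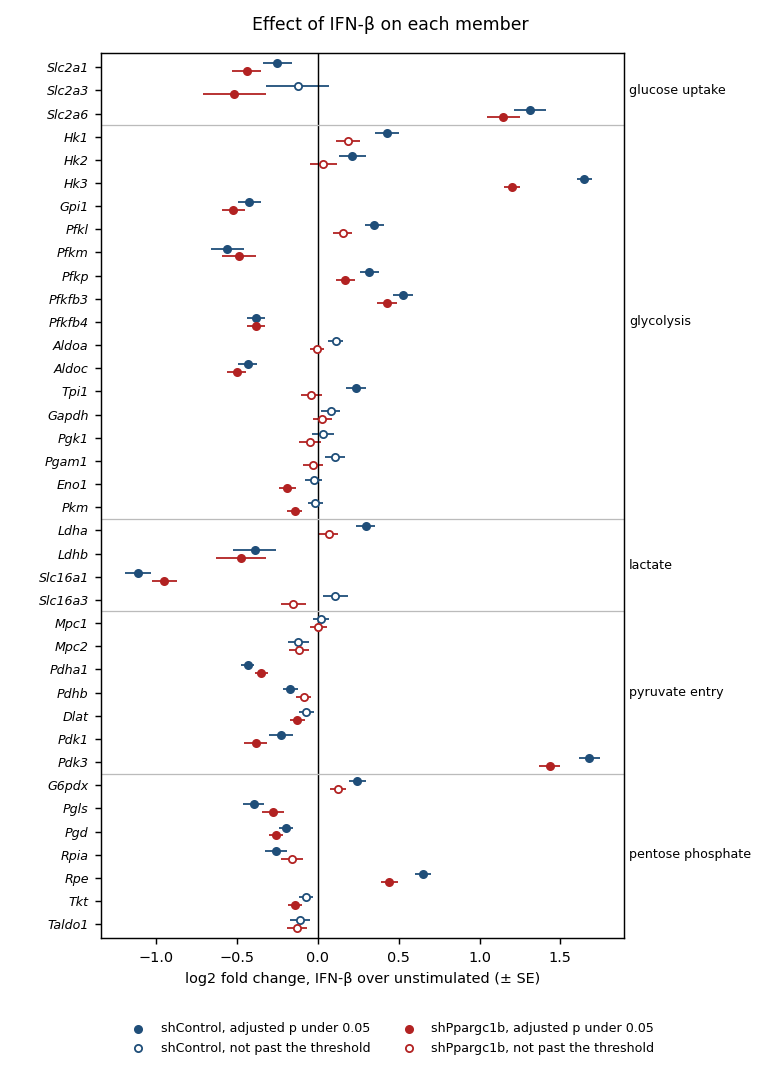
Log2 fold change of each member with IFN-β over unstimulated DCs (x axis, bars ± SE, 3 libraries per group, TMM scaling) in shControl (blue) and sh*Ppargc1b* (red), with filled points at an adjusted p under 0.05. *Pdk3*, *Hk3* and *Slc2a6* lie beyond 1 on the right and *Slc16a1* near -1 on the left in both genotypes.

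The rises shared by both genotypes were those of *Slc2a6*, *Hk3*, *Pfkp*, *Pfkfb3*, *Pdk3* and *Rpe*, while *Hk1*, *Hk2*, *Pfkl*, *Tpi1*, *Ldha* and *G6pdx* passed as higher in shControl alone. With a block for runs of library codes *Hk1*, *Pfkl* and *G6pdx* also passed as higher in sh*Ppargc1b* (adjusted p 0.0391, 0.0401 and 0.00367), as they did with DESeq2 (0.0364, 0.0341 and 0.0463). The falls in both were *Slc2a1*, *Gpi1*, *Pfkm*, *Pfkfb4*, *Aldoc*, *Ldhb*, *Slc16a1*, *Pdha1*, *Pdk1*, *Pgls* and *Pgd*. *Pdhb* (lost without IFN-β shControl 2, adjusted p 0.051) and *Rpia* passed as lower in shControl alone, and *Slc2a3*, *Eno1*, *Pkm*, *Dlat* and *Tkt* in sh*Ppargc1b* alone. The other 8 members, *Aldoa*, *Gapdh*, *Pgk1*, *Pgam1*, *Slc16a3*, *Mpc1*, *Mpc2* and *Taldo1*, passed in neither. The 2 comparisons with the knockdown share their libraries with the 2 comparisons with IFN-β.

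**Figure D3:**
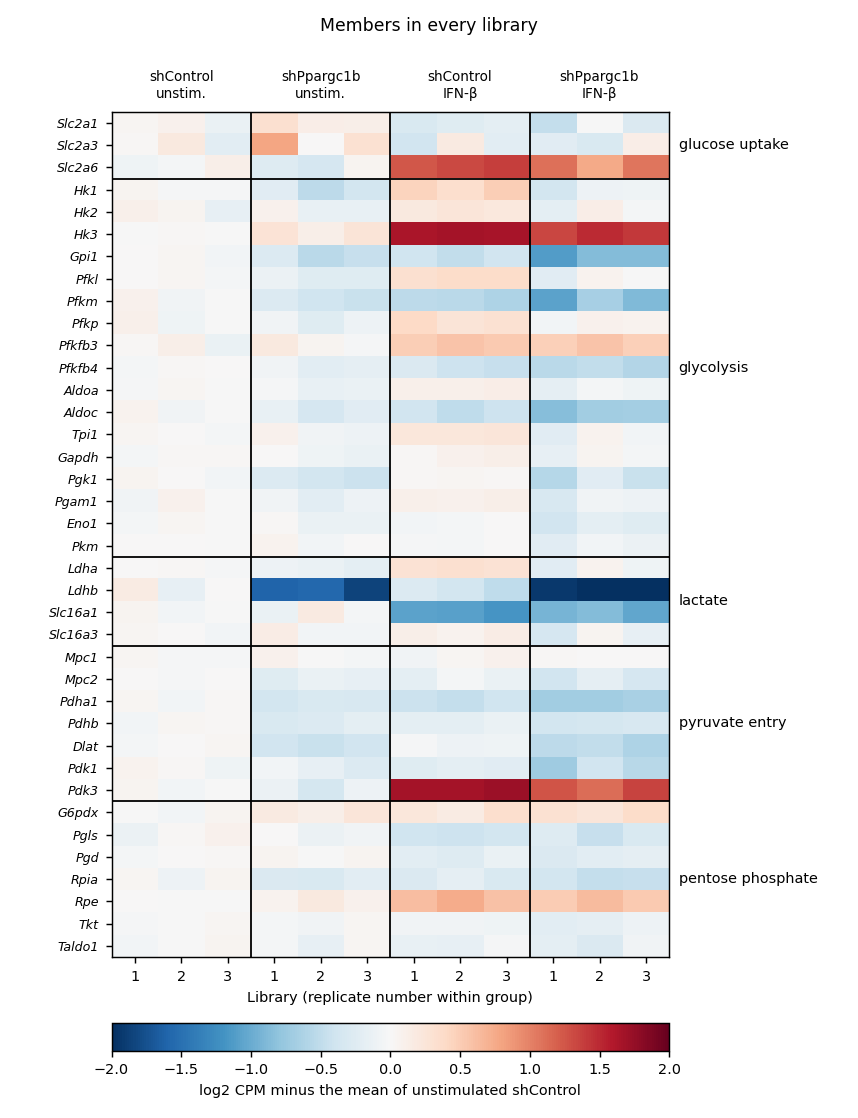
Level of the 38 members (rows, by segment) in the 12 libraries (columns), as log2 CPM minus the mean of the 3 unstimulated shControl libraries. *Ldhb* is dark blue in all 6 sh*Ppargc1b* libraries, and *Slc2a6*, *Hk3* and *Pdk3* are red in all 6 IFN-β libraries.

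Glucose uptake was carried at the RNA level mostly by *Slc2a1*, the gene for the basal transporter GLUT1. Its values were 691, 708 and 614 CPM in unstimulated shControl DCs, against 837, 737 and 727 CPM in their sh*Ppargc1b* counterparts. With IFN-β they were 540, 568 and 583 CPM in shControl and 483, 664 and 548 CPM in sh*Ppargc1b* DCs. The unstimulated groups did not overlap, yet the knockdown difference did not pass (log2 fold change 0.19 ± 0.09 (SE), adjusted p 0.152), and with IFN-β the groups overlapped (0.0022 ± 0.09, adjusted p 0.991). The missed call in unstimulated DCs depended on the fit. *Slc2a1* was called higher there without the filter on low counts (0.21, adjusted p 7.25e-05) and without IFN-β sh*Ppargc1b* 2 (0.19, adjusted p 0.0456). IFN-β lowered *Slc2a1* in sh*Ppargc1b* DCs (-0.44 ± 0.09, adjusted p 0.00103) and in shControl DCs (-0.25 ± 0.09, adjusted p 0.0332). The shControl call was lost when 1 library was left out, with adjusted p from 0.0568 to 0.139 over 6 such libraries: unstimulated shControl 1 and 2, all 3 IFN-β shControl libraries and IFN-β sh*Ppargc1b* 3.

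*Slc2a6*, which encodes GLUT6, a transporter of lysosomal membranes in macrophages, was the transporter gene that rose with IFN-β. It measured 67.7, 69.8 and 78.3 CPM in untreated shControl DCs, 60.4, 57.0 and 74.7 CPM in untreated sh*Ppargc1b* DCs, 169, 180 and 186 CPM in IFN-β shControl and 155, 121 and 150 CPM in IFN-β sh*Ppargc1b* DCs. All 6 treated libraries stood above all 6 untreated ones (log2 fold change 1.31 ± 0.10 in shControl, adjusted p 2.38e-08, and 1.15 ± 0.10 in sh*Ppargc1b*, adjusted p 1.53e-07). The knockdown lowered it with IFN-β (-0.33 ± 0.10, adjusted p 0.0218), a call lost without IFN-β sh*Ppargc1b* replicate 2 (adjusted p 0.0698) or shControl replicate 3 (0.0709). *Slc2a3*, the gene for the high-affinity transporter GLUT3, was scarce, at 4.29, 4.83 and 3.67 CPM in unstimulated shControl DCs, against 7.33, 4.27 and 5.22 CPM in their sh*Ppargc1b* counterparts. Under IFN-β its values were 3.26, 4.82 and 3.64 CPM in shControl and 3.61, 3.43 and 4.65 CPM in sh*Ppargc1b* DCs. Its fall with IFN-β in sh*Ppargc1b* (-0.52 ± 0.19, adjusted p 0.0429) rested on unstimulated replicate 1, without which it was -0.28 (adjusted p 0.246). The call was also lost without unstimulated sh*Ppargc1b* 3, IFN-β sh*Ppargc1b* 1 or 2, unstimulated shControl 1 or IFN-β shControl 3 (adjusted p 0.0522 to 0.137).

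The 3 hexokinases, which trap glucose as glucose 6-phosphate, responded differently. *Hk3*, an isozyme of myeloid cells, measured 92.0, 93.6 and 91.4 CPM in unstimulated shControl DCs, against 111, 100 and 111 CPM in their sh*Ppargc1b* counterparts. Treated with IFN-β, DCs gave 286, 294 and 289 CPM in shControl and 233, 260 and 247 CPM in sh*Ppargc1b* DCs. The sh*Ppargc1b* libraries were thus all above the controls without IFN-β and all below them with it. *Hk3* was the only member past the threshold in the interaction test, which subtracts the knockdown effect of untreated from that of treated DCs, at -0.45 ± 0.07 (adjusted p 0.00767 in edgeR). Its knockdown effect was 0.22 ± 0.05 in untreated DCs (adjusted p 0.00346) and -0.23 ± 0.05 in treated DCs (adjusted p 0.00198), and its IFN-β effect 1.65 ± 0.05 in shControl (adjusted p 1.78e-13) and 1.20 ± 0.05 in sh*Ppargc1b* (adjusted p 1.02e-11).

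*Hk1*, the broadly expressed isozyme bound to mitochondria, measured 191, 180 and 180 CPM in unstimulated shControl DCs, against 157, 128 and 142 CPM in their sh*Ppargc1b* counterparts. With IFN-β it measured 250, 232 and 257 CPM in shControl and 142, 171 and 173 CPM in sh*Ppargc1b* DCs. The knockdown libraries lay below their controls in both treatments (-0.37 ± 0.08, adjusted p 0.00226, and -0.61 ± 0.08, adjusted p 3.3e-05). IFN-β raised *Hk1* in shControl (0.43 ± 0.08, adjusted p 0.000214), and in sh*Ppargc1b* it was 0.19 ± 0.08 higher (adjusted p 0.0598). *Hk2*, the inducible isozyme, was lower in sh*Ppargc1b* with IFN-β (-0.25 ± 0.08, adjusted p 0.0395) and higher with IFN-β in shControl (0.21 ± 0.08, adjusted p 0.045, reversed with library totals). Both *Hk2* calls were close to the threshold. The knockdown call was lost without any of 9 of the 12 libraries (adjusted p up to 0.144) and the IFN-β call without any of 7, namely unstimulated shControl 2 or 3, any IFN-β shControl library and unstimulated sh*Ppargc1b* 2 or 3 (adjusted p up to 0.287 without unstimulated shControl 3). Without unstimulated shControl 3 the rise with IFN-β shrank to 0.11. The libraries without which the knockdown call held were shControl 3 and sh*Ppargc1b* 1, both unstimulated, and sh*Ppargc1b* 2 with IFN-β.

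*Gpi1* encodes glucose-6-phosphate isomerase, the next enzyme, and was among the most abundant members. Its values were 1829, 1866 and 1743 CPM in untreated shControl DCs, 1496, 1252 and 1314 CPM in untreated sh*Ppargc1b* DCs, 1376, 1292 and 1383 CPM in IFN-β shControl and 834, 988 and 999 CPM in IFN-β sh*Ppargc1b* DCs. Knockdown and IFN-β each lowered it without overlap between groups. The knockdown log2 fold changes were -0.42 ± 0.07 (adjusted p 0.000438) and -0.52 ± 0.07 (adjusted p 7e-05), and those of IFN-β -0.42 ± 0.07 (adjusted p 0.000129) and -0.53 ± 0.07 (adjusted p 2.1e-05). Leaving out any library or changing the scaling kept all 4 calls. Mean levels therefore went from 1812 ± 63 CPM (SD, n = 3) in unstimulated shControl to 940 ± 92 CPM in IFN-β sh*Ppargc1b* DCs.

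Phosphofructokinase commits sugar to glycolysis. *Pfkl*, the liver-type subunit, was lower with knockdown without IFN-β (-0.20 ± 0.06) and with it (-0.40 ± 0.06, adjusted p 0.000168). The platelet-type subunit *Pfkp* was lower with knockdown in IFN-β-treated DCs (-0.29 ± 0.06, adjusted p 0.00247), while IFN-β itself raised it in shControl (0.32 ± 0.06, adjusted p 0.000369). *Pfkm*, the muscle-type subunit, was scarce and fell with IFN-β, and with knockdown in unstimulated DCs. It measured 7.58, 6.85 and 7.11 CPM in untreated shControl DCs, 5.94, 5.41 and 5.27 CPM in untreated sh*Ppargc1b* DCs, 4.99, 4.95 and 4.67 CPM in IFN-β shControl and 3.41, 4.50 and 3.88 CPM in IFN-β sh*Ppargc1b* DCs. The log2 fold change with IFN-β was -0.56 ± 0.10 in shControl (adjusted p 0.000316) and -0.49 ± 0.11 in sh*Ppargc1b* (adjusted p 0.00143), and with knockdown -0.37 ± 0.10 without IFN-β (adjusted p 0.0141) and -0.31 ± 0.11 with it (adjusted p 0.0516). The unstimulated knockdown calls of *Pfkl* and *Pfkm* were lost when unstimulated shControl 1 or sh*Ppargc1b* 2 or 3 was left out, and that of *Pfkl* also without shControl 2 (adjusted p 0.0506 to 0.0896). The *Pfkp* rise with IFN-β in sh*Ppargc1b* (0.17 ± 0.06, reversed with library totals) was lost without unstimulated sh*Ppargc1b* 2 or IFN-β sh*Ppargc1b* 2 or 3 (adjusted p 0.0926 to 0.14).

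The PFKFB enzymes set the level of fructose 2,6-bisphosphate, which activates phosphofructokinase. *Pfkfb3*, the isoform with the strongest kinase activity, rose with IFN-β in shControl (0.53 ± 0.06, adjusted p 3.64e-06) and in sh*Ppargc1b* DCs (0.43 ± 0.06, adjusted p 4.13e-05). *Pfkfb4* fell in both (-0.39 ± 0.06 and -0.38 ± 0.06). Neither passed in a knockdown comparison of the main fit. In unstimulated DCs *Pfkfb4* was called lower with library totals (adjusted p 0.0476), with a block for runs of library codes (0.0408) and without unstimulated sh*Ppargc1b* 1 (0.0276). In IFN-β-treated DCs it was called lower without IFN-β shControl 3 (0.046).

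Of the enzymes that split and oxidise the sugar phosphates, the aldolase gene *Aldoc* fell with each factor. It measured 149, 135 and 141 CPM in untreated shControl DCs, 127, 112 and 120 CPM in untreated sh*Ppargc1b* DCs, 109, 99.6 and 106 CPM in IFN-β shControl and 78.4, 86.9 and 88.6 CPM in IFN-β sh*Ppargc1b* DCs. None of the groups compared overlapped. Its knockdown log2 fold changes were -0.24 ± 0.06 (adjusted p 0.00639) and -0.31 ± 0.06 (adjusted p 0.00113), and those of IFN-β -0.43 ± 0.06 (adjusted p 1.28e-05) and -0.50 ± 0.06 (adjusted p 3.95e-06). *Gapdh*, which encodes the NADH-producing dehydrogenase and is often used as a reference gene, measured 1486, 1558 and 1553 CPM in unstimulated shControl DCs, against 1541, 1443 and 1390 CPM in their sh*Ppargc1b* counterparts. Under IFN-β its values were 1549, 1632 and 1670 CPM in shControl and 1362, 1597 and 1496 CPM in sh*Ppargc1b* DCs. It overlapped between groups in each comparison with the knockdown and passed no test with TMM scaling (log2 fold changes -0.12 to 0.08). Without IFN-β sh*Ppargc1b* replicate 2, *Gapdh* was called lower with knockdown (-0.19, adjusted p 0.0241), and library totals called it lower with IFN-β (-0.16 and -0.18).

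The ATP-yielding enzyme gene *Pgk1* was lower with knockdown in both treatments (-0.35 ± 0.07, adjusted p 0.00125, and -0.43 ± 0.07, adjusted p 0.000244). The mutase *Pgam1*, the enolase *Eno1*, the triose phosphate isomerase *Tpi1* and the aldolase *Aldoa* passed as lower with knockdown in IFN-β-treated DCs only. Their knockdown log2 fold changes there were -0.21 to -0.30. *Pkm*, the gene for pyruvate kinase, passed in neither knockdown comparison (0.01 ± 0.05 and -0.12 ± 0.05). Under IFN-β it was called lower with knockdown by DESeq2 (-0.12, adjusted p 0.0495) and by edgeR without IFN-β sh*Ppargc1b* 2 (-0.17, adjusted p 0.0213). Reads of some of these genes could be shared with copies elsewhere. Of all 100-base windows of annotated transcripts, 51.7% of those of *Pgk1*, 33.9% of *Pgam1*, 20.9% of *Gapdh* and 20.4% of *Eno1* also occurred in another annotated gene, so their counts are uncertain. IFN-β lowered *Eno1* and *Pkm* in sh*Ppargc1b* (-0.19 ± 0.05 and -0.14 ± 0.05), and both calls were lost without unstimulated or IFN-β sh*Ppargc1b* replicate 1 (adjusted p 0.0542 to 0.123).

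*Ldhb*, the gene for the lactate dehydrogenase subunit that favours oxidation of lactate, had the largest knockdown effect of all members. It lies on the minus strand of chr6:142490249-142507957. Its values were 7.30, 5.80 and 6.53 CPM in unstimulated shControl DCs, against 2.14, 2.19 and 1.81 CPM in their sh*Ppargc1b* counterparts. With IFN-β they were 5.38, 5.03 and 4.57 CPM in shControl and 1.72, 1.17 and 1.53 CPM in sh*Ppargc1b* DCs. All 6 sh*Ppargc1b* libraries lay below all 6 shControl libraries. The log2 fold change was -1.68 ± 0.14 without (0.313-fold, adjusted p 6.5e-07) and -1.76 ± 0.15 with IFN-β (0.295-fold, adjusted p 1.1e-06). The counts behind these values ran from 67 to 417 per library. IFN-β lowered *Ldhb* by less (-0.39 ± 0.13 in shControl, adjusted p 0.0223, and -0.48 ± 0.16 in sh*Ppargc1b*, adjusted p 0.0221). These IFN-β calls were lost without unstimulated shControl 1 or IFN-β shControl 2 or 3, and without unstimulated sh*Ppargc1b* 1 or 2 or IFN-β sh*Ppargc1b* 2 (adjusted p 0.0599 to 0.119).

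*Ldha*, the subunit that favours lactate formation, was far more abundant and lower with knockdown in IFN-β DCs (-0.37 ± 0.06, adjusted p 0.000259), with -0.14 ± 0.06 in unstimulated DCs (adjusted p 0.0976). Lactate leaves cells through monocarboxylate transporters. *Slc16a1*, which encodes MCT1, measured 26.4, 24.5 and 25.2 CPM in unstimulated shControl DCs, against 23.2, 28.7 and 24.8 CPM in their sh*Ppargc1b* counterparts. Treated with IFN-β, DCs gave 12.1, 12 and 11.1 CPM in shControl and 13.4, 14.0 and 12.4 CPM in sh*Ppargc1b* DCs. IFN-β lowered it in all treated libraries (-1.11 ± 0.08 in shControl, adjusted p 9.41e-09, and -0.95 ± 0.08 in sh*Ppargc1b*, adjusted p 7.63e-08), and no knockdown difference passed. *Slc16a3*, the gene for the lactate exporter MCT4, was lower with knockdown under IFN-β (-0.25 ± 0.08, adjusted p 0.0295). That call was lost without any of 8 libraries, namely all 3 unstimulated shControl libraries, IFN-β shControl 1 and 3, unstimulated sh*Ppargc1b* 2 and IFN-β sh*Ppargc1b* 1 and 3 (adjusted p 0.0537 to 0.109).

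**Figure D4:**
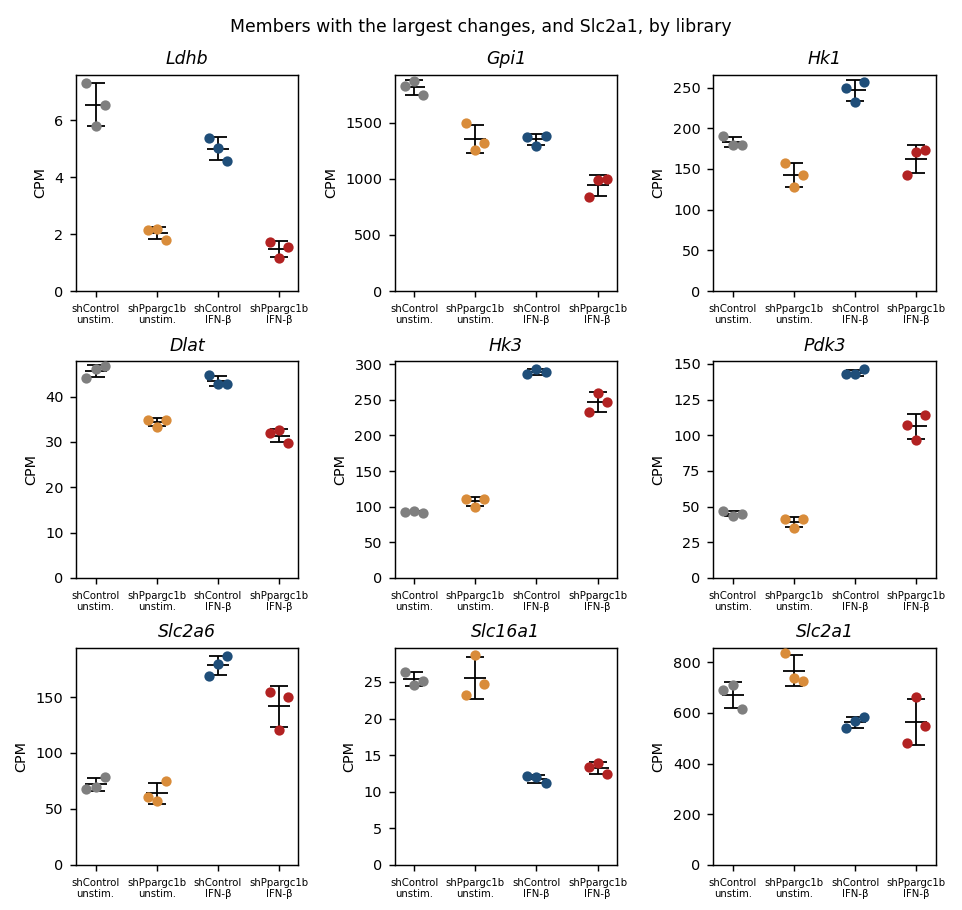
CPM (y axes from 0, each gene on its own scale) of 9 members in the 12 libraries, as points per library with the mean and SD of each group of 3 in black. The sh*Ppargc1b* points of *Ldhb*, *Gpi1*, *Hk1* and *Dlat* lie below their shControl points in both treatments, and those of *Hk3* lie above without and below with IFN-β.

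Of the pyruvate entry genes, the 3 that encode subunits of the dehydrogenase complex were lower in sh*Ppargc1b* DCs in both treatments, and neither carrier gene passed. *Dlat*, the gene for its acetyltransferase subunit, measured 44.2, 46.1 and 46.6 CPM in unstimulated shControl DCs, against 34.8, 33.3 and 34.9 CPM in their sh*Ppargc1b* counterparts. With IFN-β it measured 44.7, 42.7 and 42.9 CPM in shControl and 31.9, 32.5 and 29.8 CPM in sh*Ppargc1b* DCs. All 6 knockdown libraries lay below all 6 controls (-0.41 ± 0.05, adjusted p 1.14e-05, and -0.47 ± 0.05, adjusted p 4.87e-06). The genes of the decarboxylase subunits followed, *Pdha1* with -0.33 ± 0.04 and -0.24 ± 0.04 and *Pdhb* with -0.26 ± 0.05 and -0.17 ± 0.05, the last lost without the filter on low counts (adjusted p 0.124). *Pdha1* also fell with IFN-β (-0.43 ± 0.04 and -0.35 ± 0.04). *Dlat* fell with IFN-β in sh*Ppargc1b* at an adjusted p of 0.0377, which was lost in 8 of the 12 fits that left out a library (adjusted p up to 0.191 without IFN-β sh*Ppargc1b* 3) and held without replicate 1 of either shControl group or replicate 2 of either sh*Ppargc1b* group. That call was also lost with DESeq2 (adjusted p 0.0611), relative log expression scaling (0.0508), no filter on low counts (0.113) and the 2 compared groups alone (0.0905). For the mitochondrial pyruvate carrier, *Mpc1* gave 0.01 ± 0.05 and -0.0009 ± 0.05 and *Mpc2* -0.18 ± 0.06 and -0.17 ± 0.06 (adjusted p 0.0546 and 0.0604) with knockdown, the latter called lower by DESeq2 (adjusted p 0.0457 and 0.0463).

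*Pdk3*, a kinase that inhibits the complex, rose more with IFN-β than any other member. It measured 46.8, 43.3 and 44.6 CPM in untreated shControl DCs, 41.2, 35.0 and 41.7 CPM in untreated sh*Ppargc1b* DCs, 143, 143 and 146 CPM in IFN-β shControl and 107, 97.0 and 114 CPM in IFN-β sh*Ppargc1b* DCs. The rise was 1.68 ± 0.07 in shControl (adjusted p 7.48e-12) and 1.43 ± 0.07 in sh*Ppargc1b* (adjusted p 7.52e-11), and the interaction did not pass (-0.25 ± 0.09, adjusted p 0.325). Knockdown lowered it with IFN-β (-0.44 ± 0.06, adjusted p 0.000137). Without IFN-β the difference was -0.19 ± 0.07 at an adjusted p of 0.0499, which was lost without any unstimulated shControl library, any IFN-β shControl library, unstimulated sh*Ppargc1b* 2 or IFN-β sh*Ppargc1b* 1 (adjusted p 0.0585 to 0.226). Without unstimulated sh*Ppargc1b* 2 the difference shrank to -0.12. *Pdk1*, a hypoxia-inducible kinase, was lower with knockdown under IFN-β (-0.32 ± 0.07, adjusted p 0.00423) and with IFN-β in shControl (-0.23 ± 0.07) and sh*Ppargc1b* (-0.39 ± 0.07). The shControl call was lost without IFN-β shControl 1 or 3 (adjusted p 0.0679 and 0.0603).

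Of the 7 pentose phosphate genes, 1 was higher and 1 lower with knockdown in unstimulated DCs. *G6pdx*, the gene for the enzyme that opens the pathway, was higher in unstimulated sh*Ppargc1b* DCs, at 326, 310 and 339 CPM against 287, 276 and 299 CPM in shControl (0.18 ± 0.05, adjusted p 0.0206). Under IFN-β its values were 337, 321 and 363 CPM in shControl and 354, 339 and 369 CPM in sh*Ppargc1b* DCs, which overlapped (0.06 ± 0.05, adjusted p 0.472). The unstimulated call was lost without shControl 1 or 2 or sh*Ppargc1b* 3 (adjusted p 0.0532 to 0.0825). *Rpia*, a pentose isomerase gene, was lower in unstimulated sh*Ppargc1b* DCs (-0.27 ± 0.07, adjusted p 0.00726), and no member of the segment passed with knockdown under IFN-β. With IFN-β, *Rpe*, the epimerase gene whose upstream sequence holds the interferon-stimulated response element, rose in shControl (0.65 ± 0.05, adjusted p 3.37e-08) and sh*Ppargc1b* DCs (0.44 ± 0.05, adjusted p 3.82e-06). The lactonase gene *Pgls* fell (-0.40 ± 0.07 and -0.28 ± 0.07), as did *Pgd*, whose enzyme forms NADPH (-0.20 ± 0.04 and -0.26 ± 0.04). Of the genes of the non-oxidative steps, *Tkt* passed as lower with IFN-β in sh*Ppargc1b* (-0.14 ± 0.04, lost without unstimulated sh*Ppargc1b* 3 or IFN-β sh*Ppargc1b* 1 at adjusted p 0.0627 and 0.0586), and *Taldo1* passed in none of the comparisons with TMM scaling and no block. It was called lower with IFN-β in both genotypes with a block for runs of library codes (adjusted p 0.0206 and 0.0106) and with library totals (0.000246 and 0.000486).

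Summed levels follow the most abundant members of a segment. *Gpi1*, for one, averaged 1812 CPM in unstimulated shControl and 1354 in unstimulated sh*Ppargc1b* DCs. The pyruvate entry sum joins the dehydrogenase subunits with the kinases that inhibit them, among them *Pdk3* (means of 44.9 CPM in unstimulated and 144 in IFN-β shControl). The 17 glycolysis genes summed to 9778 ± 168 CPM in unstimulated shControl (SD, n = 3), 8902 ± 518 in unstimulated sh*Ppargc1b*, 10136 ± 126 in IFN-β shControl and 8522 ± 613 in IFN-β sh*Ppargc1b* DCs. The sums of the knockdown groups lay below their controls without overlap in glycolysis, lactate and pyruvate entry genes. The glucose uptake sum was higher in unstimulated sh*Ppargc1b* DCs (799 to 905 against 696 to 783 CPM) and overlapped with IFN-β, and the pentose phosphate sums overlapped in both treatments. With 3 libraries against 3, no exact permutation test could go below 0.1. All members together took 1.09% to 1.54% of the counts of a library. Per kilobase of exon, *Aldoa* stood highest in unstimulated shControl DCs at 539 CPM per kb, followed by *Gapdh* at 371 and *Pkm* at 303, and *Slc2a3* lowest at 0.59.

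The share of each isozyme in its family, from counts per kilobase of exon, needs no scaling between libraries. *Slc2a1* made up 89.2% ± 1.4 (SD, n = 3) of the 3 glucose transporters in unstimulated shControl and 74.2% ± 0.2 with IFN-β, where *Slc2a6* went from 10.5% ± 1.5 to 25.6% ± 0.2. *Hk2* went from 58.1% ± 2.2 to 41.1% ± 0.5 of the hexokinases and *Hk3* from 22.6% ± 1.4 to 43.1% ± 0.4. *Pdk3* went from 34.3% ± 1.2 to 66.9% ± 0.5 of the 4 PDK genes and *Pdk1* from 57.4% ± 1.0 to 29.9% ± 0.5. In sh*Ppargc1b* DCs with IFN-β the shares were 77.9% ± 4.8 for *Slc2a1*, 45.0% ± 1.3 for *Hk3* and 65.2% ± 3.9 for *Pdk3*. None of these shares overlapped between untreated and treated libraries of a genotype. *Ldhb* made up 1.44% ± 0.18 of the lactate dehydrogenase genes in unstimulated shControl DCs, against 0.501% ± 0.037 in unstimulated sh*Ppargc1b*, with 0.901% ± 0.073 and 0.352% ± 0.099 under IFN-β. With 92 tests of shares the exact two-sided permutation p was at best 0.1 and its adjusted value 0.159.

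**Figure D5:**
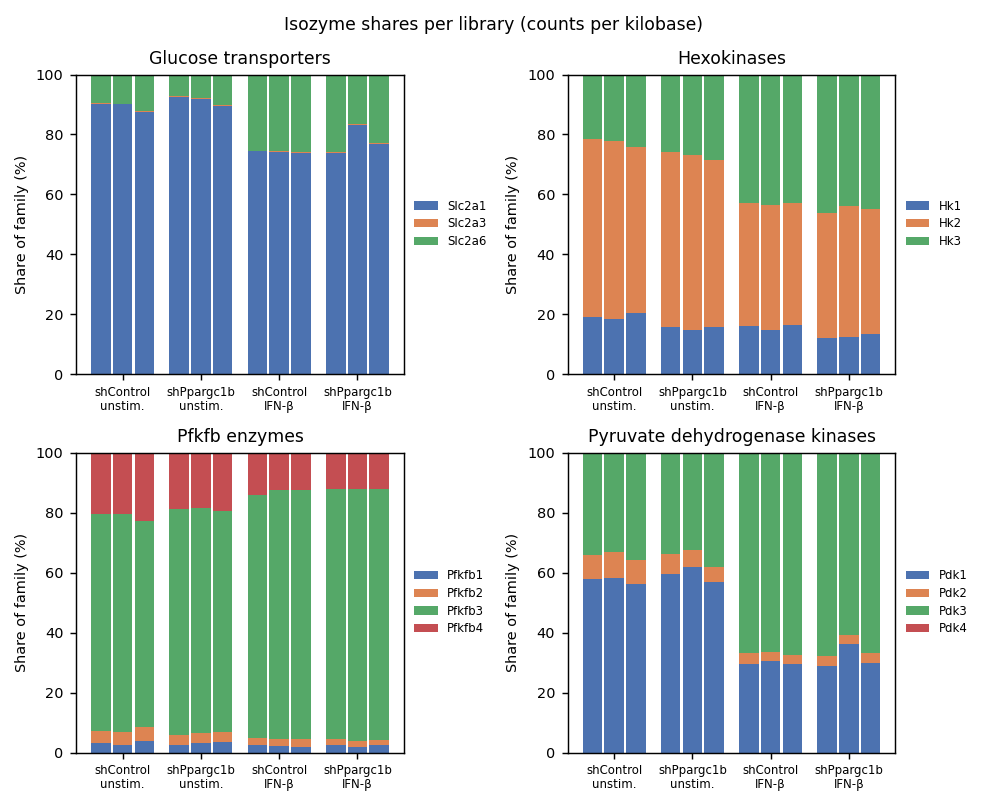
Share of each isozyme in its family (y axis, % of counts per kilobase of exon) in each of the 12 libraries, stacked to 100%. Green *Slc2a6*, *Hk3* and *Pdk3* bars are taller in all 6 IFN-β libraries than in all 6 untreated ones.

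Whether the knockdown effect itself differed with IFN-β was tested by the interaction. In edgeR 1 member, *Hk3*, passed as lower and 0 as higher, against 0.669% and 0.0603% of all genes. At an unadjusted p under 0.05 in edgeR, 9 members were lower and 0 higher, where 1909 of 18228 genes passed in either direction. DESeq2 called 1 member lower and 0 higher, against 367 and 85 of all genes. The median interaction of the members was -0.11, against -0.0008 over all genes. Without IFN-β sh*Ppargc1b* replicate 2, 4 members passed, the added ones being *Tpi1* (-0.36, adjusted p 0.0386), *Ldha* (-0.32, adjusted p 0.0279) and *Slc16a3* (-0.38, adjusted p 0.042). *Hk3* passed in every alternative fit.

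Other genes of these pathways moved in both directions with knockdown. For the lists that follow, the shares over all genes were 12.4% higher and 11.1% lower with knockdown in unstimulated DCs and 11.5% and 12.7% with IFN-β, and for IFN-β itself 23.7% and 24.6% in shControl and 21.4% and 21.2% in sh*Ppargc1b*. The lists are small, and counts such as 4 and 3 of 12 or 2 of 13 lie near these shares. Of 26 tested, 7 were higher and 7 lower in unstimulated DCs and 5 higher and 8 lower with IFN-β, and IFN-β raised 1 and lowered 10 in shControl and raised 2 and lowered 11 in sh*Ppargc1b*. *Adpgk*, an ADP-dependent glucokinase gene, fell with IFN-β in shControl (-1.05 ± 0.07). Of 12 regulators, 2 were higher and 4 lower with knockdown in unstimulated DCs and 2 and 5 with IFN-β. The largest of these was *Epas1*, the gene for HIF-2α, with a log2 fold change of -1.12 ± 0.12 in untreated DCs (adjusted p 8.12e-06) and -1.19 ± 0.13 in treated DCs (adjusted p 9.84e-06). IFN-β raised 4 and lowered 3 regulators in shControl, among them *Myc* (-1.31 ± 0.12, adjusted p 2.39e-07), and raised 3 and lowered 4 in sh*Ppargc1b*. Of 13 hypoxia targets outside glycolysis, 2 were lower with knockdown without and 6 with IFN-β and 0 higher, and IFN-β raised 1 and lowered 3 in shControl and raised 1 and lowered 8 in sh*Ppargc1b*. No gene of these 3 lists passed in the interaction.

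Cell type markers also moved with the knockdown and with IFN-β. Of the 10 dendritic markers, 6 were higher and 0 lower in sh*Ppargc1b* DCs in each treatment. Of the 9 macrophage markers, 3 without and 4 with IFN-β were lower, and their summed levels were 2493 to 2551 against 2727 to 2867 CPM and 3015 to 3153 against 3423 to 3649 CPM. Neutrophil markers summed to 39.1 to 101 CPM in shControl and 87.3 to 164 CPM in sh*Ppargc1b* libraries, with 1 of 8 higher in each treatment. Mast cell or basophil markers summed to 16.9 to 20.1 CPM in unstimulated sh*Ppargc1b* against 7.31 to 14.9 CPM in shControl libraries and overlapped with IFN-β (9.52 to 17.1 against 6.12 to 13.2 CPM), with 1 of 5 higher in each treatment. Eosinophil markers summed to 22.3 to 67.7 CPM and none of 4 passed. Of 6 proliferation markers, which summed to 229 to 401 CPM, 1 was higher and 1 lower with knockdown in unstimulated DCs and none passed with IFN-β. IFN-β itself raised 5 and lowered 0 of the 9 macrophage markers in each genotype. Of the 10 dendritic markers it raised 2 and lowered 1 in shControl and raised 2 and lowered 0 in sh*Ppargc1b*. It lowered 1 of 5 mast cell or basophil markers in each genotype, and no neutrophil or eosinophil marker passed. Over all genes it raised 23.7% and lowered 24.6% in shControl and 21.4% and 21.2% in sh*Ppargc1b*. The part of these differences in the members' values was not tested.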

How the data were processed

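RNA was depleted of ribosomal RNA and made into libraries with a KAPA kit. Per the labels and the study's methods, the authors trimmed reads with Trim Galore (0.6.0 in the submitters' processing notes), aligned them with STAR to mm10 (GRCm38) and counted reads per gene of GENCODE release M20 with STAR's GeneCounts option. The submitters' notes name STAR 2.7.8a, the methods another version, and the strand setting of the counting is not given in the sources used here. The deposited values are raw counts for 55471 genes in 12 libraries, taken as given, so reads shared by overlapping genes or near-identical copies could be lost or split.

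Libraries were grouped by their labels. Counts were filtered with filterByExpr (minimum count 10), which kept 18228 genes and 99.96% of counts, scaled by TMM and tested with edgeR 4.0.16 (R 4.3.3) by the quasi-likelihood test in a fit with 1 mean per group over all 12 libraries. P-values were adjusted by Benjamini-Hochberg over all 18228 genes, and 0.05 was the threshold. Values are CPM with TMM scaling. SD is over 3 libraries and SE is that of the log2 fold change. The fit was tested on simulated data with known fold changes. Depth was 49.9 to 77.7 M counts, and the lowest count of a member was 67 in a library. Differences of isozyme shares were tested by exact two-sided permutation. Lengths and gene positions came from GENCODE M21, and promoter windows and motifs from RefSeq on GRCm38.p6, which held 37 of the 38 members. Members named with a value in every library were *Slc2a1*, *Gapdh*, the 3 largest rises and 3 largest falls among those past the threshold in each comparison and those past it in the interaction. Genes outside the set were named where they passed with a log2 fold change of at least 1 in size. The members, lists, markers and motifs were chosen with earlier results of these data known. Alternatives were other scalings, no filter, DESeq2 1.42.0, a block for runs of library codes, the 2 compared groups alone and leaving out each library.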

Additional observations from a re-analysis of the deposited data

Results flagged for a closer look

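*Hk3* was singled out because the effect of the knockdown differed between untreated and IFN-β-treated DCs by the test of the interaction (-0.45 ± 0.07 on the log2 scale, adjusted p 0.00767 in edgeR). The 3 unstimulated sh*Ppargc1b* libraries lay above their controls and the 3 treated ones below theirs.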

How the results depend on the processing

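The labels carry no replicate numbers, so libraries were not paired by number. Each of 3 runs of 4 consecutive library codes holds 1 library of every group. Across genes, which are not independent, deviations from the group means correlated at 0.014 to 0.275 over 18 library pairs within a run, above 0.1 in 13, and at -0.289 to 0.114 over 36 pairs between runs. A block for these runs added 12 member calls and removed 0. Of 83 member calls, 58 held in each alternative run for them (18, or 17 for the interaction), and 25 were lost in at least 1. Of 107 member results with no call, 46 were called in at least 1 alternative. With library totals instead of TMM factors, IFN-β results moved most: 2598 genes were higher and 8294 lower in shControl and 2340 and 7551 in sh*Ppargc1b*, with 6 members higher and 23 lower in shControl and 28 lower in sh*Ppargc1b*. Under the same scaling, which shifts all genes of a comparison alike, 8 members changed sign in each genotype, among them *Hk2* (-0.027), *Tpi1* (-0.0059), *Aldoa* (-0.13), *Pgk1* (-0.21), *Gapdh* (-0.16) and *Mpc1* (-0.22) in shControl and *Pfkp* (-0.034), *Gapdh* (-0.18), *Ldha* (-0.14) and *Mpc1* (-0.20) in sh*Ppargc1b*. The interaction called 11 genes higher and 122 lower, but 17 and 67 with library totals, 103 and 422 without the filter (5 members lower), 85 and 367 with DESeq2 and 86 and 339 with a block for runs of library codes. Without the filter 4 members were higher with knockdown in unstimulated DCs. Leaving out 1 library gave 4 to 56 genes higher and 32 to 215 lower in the interaction, with 1 to 4 members lower. It gave 1 to 3 members higher with knockdown without and 0 to 1 with IFN-β, and 5 to 9 members higher and 11 to 17 lower with IFN-β in sh*Ppargc1b*. Without length correction 34 of 92 differences in isozyme share moved by more than the spread between libraries, and 4 changed sign, none of them above 0.724 percentage points in size (*Hk2* and *Pdk3* with knockdown in unstimulated DCs, *Pfkp* with IFN-β in shControl and *Pfkl* with IFN-β in sh*Ppargc1b*).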
